A study of Homo sapiens with 8 samples.

Results

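Control cells of 2 human thyroid lines were compared, TT against Nthy-ori 3-1, over all 36390 genes of the array. The comparison takes the 2 arrays labelled TT CTL and the 2 labelled ORI CTL, 4 of the 8 arrays of the series. TT is an established line of medullary thyroid carcinoma, the tumour of the calcitonin-producing C cells, and carries the RET mutation of multiple endocrine neoplasia according to the study. Nthy-ori 3-1 is an established line of immortalized thyroid follicular cells that is not tumoral. By the study's transfection methods, the TT controls had received a control antagomiR, an antisense inhibitor without a target miRNA, for 48 h. The Nthy-ori 3-1 controls had received a control pre-miR, a synthetic miRNA precursor, for the same 48 h. The labels call both only CTL, so the reagents come from the study's methods. The methods for these arrays name only the control pre-miR, so the reagent of the TT controls is not settled. The labels give a final concentration of 20 nM for antagomiRs and 5 nM for pre-miRs, and the methods state higher ones. The remaining 4 arrays carried RNA of TT cells given antagomiR-375, an inhibitor of miR-375, and of Nthy-ori 3-1 cells given its precursor, pre-miR-375.

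Nthy-ori 3-1 cells were grown in RPMI medium and TT cells in DMEM/F12. Each slide and each scan day held a single line. Medium, control reagent if it differed, slide and scan day therefore cannot be told apart from the line, and each group is a single line. The RNA integrity number was 8 for both TT controls and 9 for both Nthy-ori 3-1 controls, and its part in the differences was not tested. It was 9 for all 4 treated arrays. The study's methods speak of biological replicates, while the TT labels number them differently in title and description, so the p-values measure the spread between these arrays.

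The thyroid holds 2 endocrine cell types. Follicular cells take up iodide, build thyroglobulin and release thyroid hormone. C cells lie between the follicles, make calcitonin from the CALCA gene, store it in dense-core granules and release it when calcium enters. RET, a receptor tyrosine kinase of the GDNF family ligands, is the driver of most hereditary medullary carcinomas. MiR-375 is a miRNA of endocrine cells, and it is the miRNA that the study manipulated in both lines. The array has no probe for it, so its mature sequence is given here as the molecule that the treated arrays inhibit or supply (RefSeq, GRCh38.p14, chromosome 2, minus strand), with the seed, bases 2 to 8 from the 5′ end, in capitals.
hsa-miR-375-3p: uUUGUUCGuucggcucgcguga

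Values are log2 of the background-subtracted signal, quantile normalized over the 4 control arrays, and a difference is the TT mean minus the Nthy-ori 3-1 mean on that log2 scale. A gene was called when its adjusted p by limma (Benjamini-Hochberg over 50599 probes) was at most 0.05, the difference at least 1, and the probe well above background on both arrays of the higher line. Where a gene was above background on both arrays of one line and neither of the other, the ratio is given as a lower bound against the dimmest signal that passed as above background. Of 58717 spots, 35689 and 37340 were well above background on the TT arrays and 33104 and 32889 on the Nthy-ori 3-1 arrays, and 0 were saturated. Replicates correlated with r of 0.991 in TT and 0.977 in Nthy-ori 3-1, against 0.852 to 0.863 across lines (descriptions across probes). The median absolute difference between replicates was 0.173 in TT and 0.336 in Nthy-ori 3-1. The number of arrays limits the precision: an exact permutation test of 2 against 2 arrays cannot give a two-sided p below 0.333, so single genes rest on the fit across all probes.

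The lines differed in 7831 genes. TT cells were higher for 4175 genes, 11.5% of those tested, and Nthy-ori 3-1 cells for 3656 genes, 10% of those tested. A difference of at least 5 was seen for 748 genes higher in TT and 503 higher in Nthy-ori 3-1. Of the called genes, 1685 were above background in TT and on neither Nthy-ori 3-1 array, and 861 were above background in Nthy-ori 3-1 and on neither TT array. Another 10712 genes were not well above background on any of the 4 arrays. Among the 16519 genes above background on both arrays of at least 1 line and placed on a chromosome, the shares were 19.5% and 18.5%, against which lists of expressed genes can be read. The median difference over all genes was -0.05. Without TT replicate 1 the counts were 728 and 473, and without TT replicate 2 they were 966 and 563. With the authors' log2 table, whose values read as normalized within each line, 2640 genes were higher in TT and 4942 in Nthy-ori 3-1, so that TT-higher genes made up 34.8% of the calls against 53.3% here. In that table the median over all genes was -0.31.

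**Figure D1:**
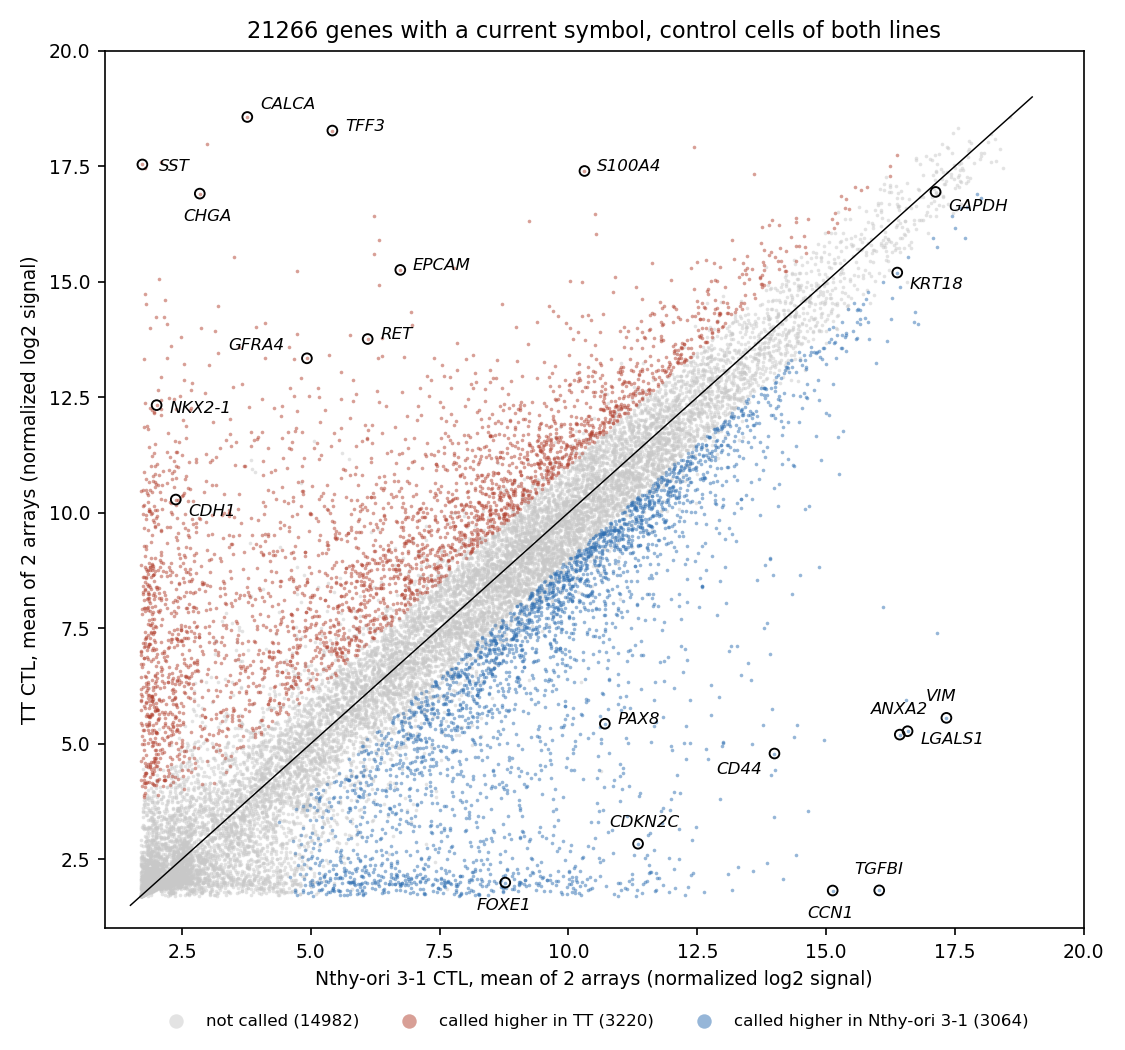
Mean normalized log2 signal of each gene with a current symbol in TT CTL (vertical axis) and Nthy-ori 3-1 CTL cells (horizontal axis), 2 arrays per mean, with called genes in colour and selected genes circled; the line marks equal signal. Of the 21266 genes plotted, 3220 called higher in TT lie above the line and 3064 called higher in Nthy-ori 3-1 below it, with CALCA and TGFBI far from it on either side.

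C cell genes set TT apart. All 14 measured C cell and neuroendocrine markers were called higher in TT, with a median difference of 7.35 (6.38 with genes above background in a single line set at their bound, 4.44 with the normexp background and 4.35 with the authors' log2 values). CALCA, which encodes calcitonin and CGRP, read 18.52 and 18.61 on the TT arrays and 3.94 and 3.60 on the Nthy-ori 3-1 arrays. It was not well above background in Nthy-ori 3-1 and was at least 18713-fold higher in TT (adjusted p = 0.00125). CHGA, which encodes chromogranin A, a matrix protein of secretory granules, read 16.78 and 17.04 in TT and 3.49 and 2.20 in Nthy-ori 3-1. Its bound was at least 5926-fold (adjusted p = 0.00236, and 0.0516 and 0.0503 without TT replicate 1 and 2). RET read 13.67 and 13.85 in TT against 6.37 and 5.84 in Nthy-ori 3-1, above background in both, with a difference of 7.66 ± 0.25 (SE; 202-fold, adjusted p = 0.00194), which ranged from 6.36 to 7.88 over the alternatives, lowest with the authors' log2 values. No array of one line overlapped the other for any of the 3 genes. The share of all genes without overlap was not counted, and an exact permutation test gives such a separation a two-sided p of 0.333. On the 2 treated Nthy-ori 3-1 arrays CALCA read 8.11 and 4.49, in arrays that were normalized apart from the controls. CALCB has no probe that could be matched.

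**Figure D2:**
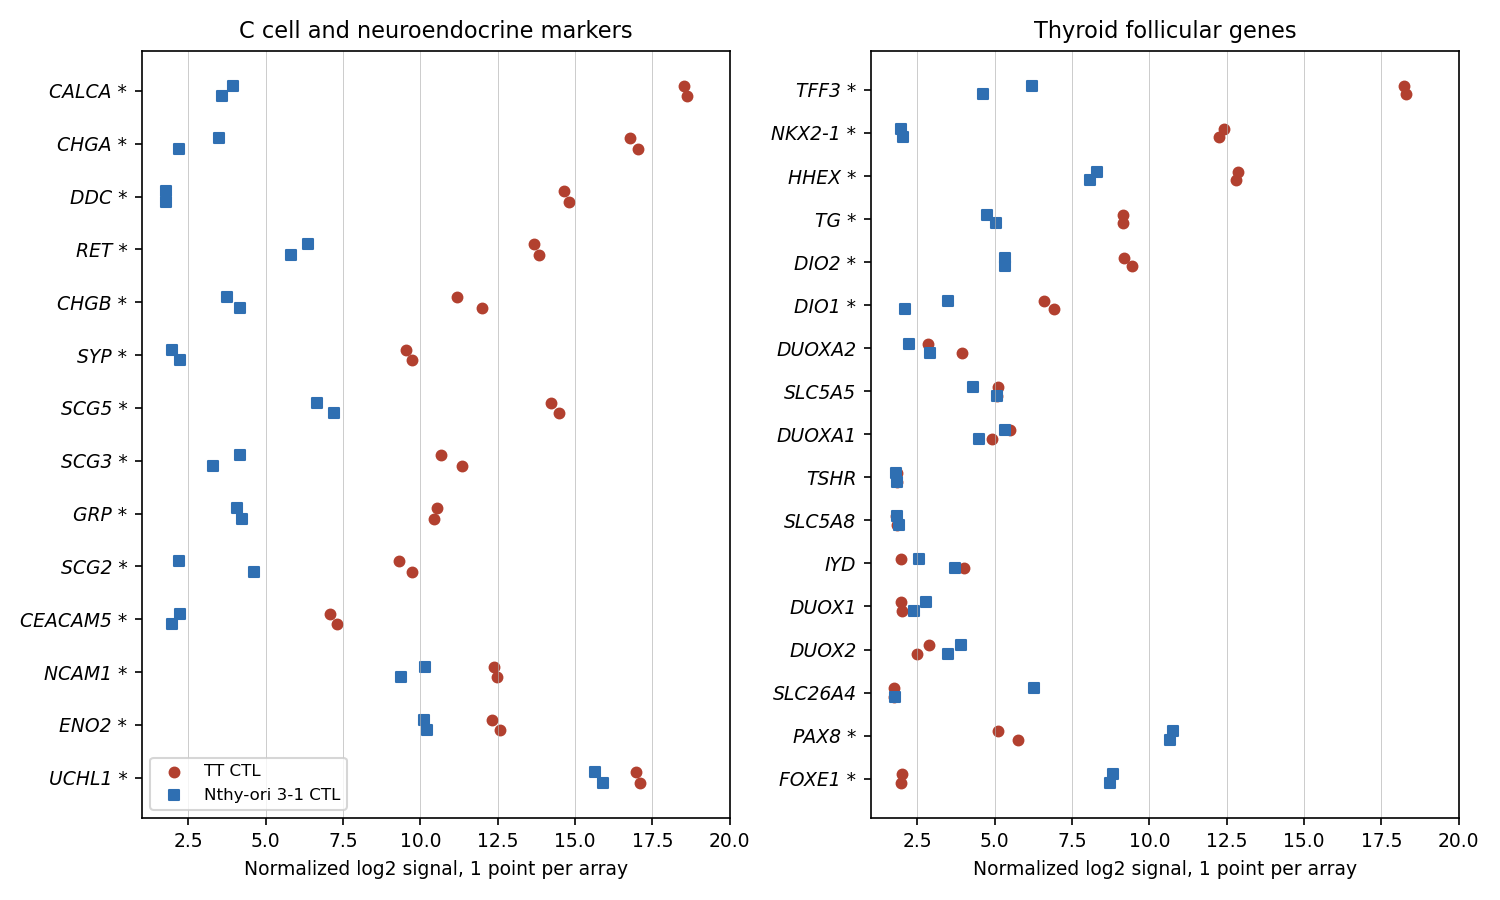
Normalized log2 signal of C cell and neuroendocrine markers (left) and thyroid follicular genes (right) on each control array, TT CTL as circles and Nthy-ori 3-1 CTL as squares, with called genes starred. All 14 markers on the left were called higher in TT, while of the 17 follicular genes shown 6 were called higher in TT and 2 in Nthy-ori 3-1.

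Other granule proteins were higher in TT as well. CHGB, another granin, was at least 150-fold higher in TT, SCG3 at least 99.3-fold, and SCG2 at least 32.9-fold (adjusted p = 0.00352, 0.00512 and 0.0302). SCG2 was the member of the 14 markers not called on the treated arrays, where Nthy-ori 3-1 read 6.72 and 8.41 and the difference was 2.28 (adjusted p = 0.124). SCG5, the chaperone of prohormone convertase PCSK2, differed by 7.41 ± 0.27 (SE). The synaptic vesicle protein SYP was at least 38.3-fold higher. DDC, the decarboxylase that makes dopamine and serotonin, read 14.65 and 14.82 in TT and 1.76 and 1.78 in Nthy-ori 3-1, at least 1313-fold apart. GRP, the gastrin-releasing peptide, was at least 69.9-fold and CEACAM5, the carcinoembryonic antigen followed as a serum marker of this tumour, at least 7.08-fold higher. The 3 markers with the smallest differences were present in both lines: ENO2 differed by 2.28, NCAM1 by 2.66 and UCHL1 by 1.26.

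Peptide processing genes were higher in TT for 9 of 19 measured members (47.4%) and lower for 2 (10.5%). The latter share stands beside 10% of all genes and 18.5% of expressed genes. PCSK1, a convertase that cuts prohormones, read 13.99 and 14.17 in TT and 2.15 and 2.26 in Nthy-ori 3-1 (at least 834-fold). CPE, the carboxypeptidase that trims the cut ends, differed by 7.09 and PAM, the enzyme that amidates the carboxyl end of calcitonin, by 2.81. The granule membrane protein PTPRN2 and the calcium sensor SCGN were above background only on the TT arrays, at least 311-fold and 599-fold higher. QPCT, which closes amino-terminal glutamine into a ring, and CPZ, a carboxypeptidase of the cell surface, went the other way, at least 12.8-fold and 9.85-fold higher in Nthy-ori 3-1. SST, which encodes somatostatin, was not on the list and was named by its signal. It read 17.52 and 17.56 in TT and 1.72 and 1.74 in Nthy-ori 3-1, at least 9177-fold apart.

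The SST promoter is a textbook case of a cAMP response element, so its start region is shown (RefSeq, GRCh38.p14; 250 bases before to 50 bases after the start, in the direction of the gene). Capitals mark TGACGTCA, searched as such because it reads the same on both strands. SST lies on the minus strand at chr3:187670345-187670644.
SST: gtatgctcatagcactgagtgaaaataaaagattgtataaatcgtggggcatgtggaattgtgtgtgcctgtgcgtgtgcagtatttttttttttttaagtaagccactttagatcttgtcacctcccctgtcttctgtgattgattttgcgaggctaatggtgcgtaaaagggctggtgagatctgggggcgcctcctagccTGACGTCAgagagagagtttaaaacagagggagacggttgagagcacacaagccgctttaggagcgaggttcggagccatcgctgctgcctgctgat
The element was found in 415 of 16028 promoters of measured genes (2.59%). Its share was 2.12% of the promoters of genes called higher in TT and 3.33% of those of genes called higher in Nthy-ori 3-1, a description with no test. The same window of CALCA holds 0 copies.

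Neuroendocrine transcription factors were higher in TT for 14 of 25 measured members and lower for 0. INSM1, a zinc finger factor of neuroendocrine cells, read 12.12 and 12.25 in TT and 1.94 and 1.96 in Nthy-ori 3-1, at least 224-fold higher in TT, and RUNX1T1 was at least 69.7-fold higher. FOXA1 and FOXA2, pioneer factors of endoderm, were at least 180-fold and 29.0-fold higher. SOX11 and POU3F2, known from neural progenitors, were at least 60.6-fold and 13.7-fold higher, and ISL1 differed by 3.52. NEUROD1 and HAND2, markers of other neuroendocrine and sympathetic lineages, were not well above background on any of the 4 arrays. PROX1 was at least 5.95-fold higher in TT without passing the test (adjusted p = 0.0756), with the Nthy-ori 3-1 arrays at 4.34 and 1.95.

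RET and its partners were called in both directions. RET needs a co-receptor of the GFRA family to bind its ligand. GFRA4, the co-receptor of persephin, read 13.33 and 13.36 in TT and 4.78 and 5.07 in Nthy-ori 3-1, a difference of 8.42 ± 0.16 (SE; adjusted p = 0.00125). GFRA1, the co-receptor of GDNF, was higher in Nthy-ori 3-1 by 3.74 on the log2 scale, with 12.43 and 12.18 there against a TT mean of 8.57. The ligand GDNF itself was at least 88.9-fold higher in Nthy-ori 3-1, where it read 9.80 and 10.01. Neurturin, encoded by NRTN, was higher in TT by 3.97 and GDF15 by 2.39. Of the 11 measured members 4 were higher in TT (36.4%) and 2 in Nthy-ori 3-1 (18.2%, near the 18.5% of expressed genes). GFRA2, GFRA3, ARTN, PSPN and GFRAL did not pass, with differences of -0.95 to 0.09.

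Regulated exocytosis genes were higher in TT for 18 of 36 members (50%) and lower for 4 (11.1%). Over all genes 10% were lower in TT, and over expressed genes 18.5%. The calcium sensors of vesicle fusion differed among themselves: SYT4 was at least 73.0-fold higher in TT, SYT7 differed by 6.59 and SYT1 by 5.64. CPLX2, a complexin that clamps the fusion machinery, was at least 327-fold higher and the priming factor CADPS at least 47.9-fold. RAB3A and RAB3C, small GTPases of secretory vesicles, were higher in TT, by 3.82 and at least 14.4-fold. Among the SNARE proteins, SNAP25 of neurons was higher in TT by 2.79, while its widely expressed relative SNAP23 was lower, with a difference of -2.98. VAMP3, of constitutive recycling, was lower too, with -1.35, as were RAB3B and SYTL4.

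Voltage-gated calcium and sodium channel genes were higher in TT for 12 of 28 members (42.9%) and lower for 4 (14.3%). The latter share lies between the 10% of all genes and the 18.5% of expressed genes. With the normexp background the counts were 9 and 1, and with the authors' log2 values 9 and 2. CACNA1H and CACNA1G, T-type calcium channels, differed by 4.09 and 2.55, and the L-type channel CACNA1D, of which Nthy-ori 3-1 had no array above background, was at least 2.37-fold higher. The auxiliary subunits CACNA2D2 and CACNA2D1 differed by 7.05 and 3.09, and CACNA2D3 was at least 40-fold higher. Among sodium channels SCN9A differed by 4.78, SCN2A was at least 4.59-fold and the beta subunit SCN3B at least 17.0-fold higher. CACNA1A and CACNA1E were higher in Nthy-ori 3-1, at least 3.87-fold and 2.83-fold, and SCN8A by 1.77 on the log2 scale. In the amine list 8 of 15 members were higher in TT and 0 lower, with 5 higher under normexp and 4 with the authors' log2 values. They include the serotonin enzyme TPH2 (at least 12.9-fold), GCH1 (difference 3.85), which makes a cofactor of amine synthesis, and MAOA (4.07), which degrades amines. TH, the first enzyme of catecholamine synthesis, was above background in both lines and did not pass (difference 0.53).

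Thyroid follicular genes did not mark Nthy-ori 3-1 as a group. Of 19 measured members 6 were higher in TT (31.6%) and 3 in Nthy-ori 3-1 (15.8%, between the 10% of all genes and the 18.5% of expressed genes), with a median difference of 0.02. NKX2-1, a transcription factor of both thyroid cell types, read 12.40 and 12.25 in TT and 1.98 and 2.04 in Nthy-ori 3-1, at least 248-fold apart. TG, the thyroglobulin gene, read 9.15 and 9.14 in TT and 4.74 and 5.03 in Nthy-ori 3-1, a difference of 4.26. HHEX differed by 4.63 and the deiodinase DIO2, which activates thyroid hormone, by 3.97. TFF3, a secreted trefoil peptide, read 18.24 and 18.30 in TT and 6.20 and 4.64 in Nthy-ori 3-1 (difference 12.85 ± 0.62, SE; adjusted p = 0.00351, and 0.0617 and 0.0609 without TT replicate 1 and 2). PAX8 and FOXE1, the other thyroid transcription factors, were higher in Nthy-ori 3-1: PAX8 read 10.76 and 10.65 there against 5.10 and 5.77 in TT, and FOXE1 was at least 40.6-fold higher. TSHR, the thyrotropin receptor, and the transporter SLC5A8 were not well above background in either line. SLC5A5, the iodide transporter, did not pass, with a difference of 0.42. The follicular label of Nthy-ori 3-1 thus rests in these data on PAX8 and FOXE1, and the thyroglobulin and NKX2-1 signals lay with TT.

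Epithelial genes were higher in TT for 17 of 31 members (54.8%) and lower for 3 (9.68%). The latter share stands beside 10% over all genes and 18.5% over expressed genes. The median difference was 2.59, or 1.69 with the authors' log2 values. CDH1, the adhesion molecule E-cadherin, read 10.27 and 10.30 in TT and 2.80 and 1.96 in Nthy-ori 3-1, at least 60.1-fold apart. EPCAM differed by 8.52, and RAB25, a GTPase of epithelial recycling, was at least 256-fold higher. The splicing factor ESRP1 was at least 44.2-fold higher and ESRP2 differed by 2.93. The protease inhibitors SPINT1 and SPINT2 differed by 7.04 and 5.50, and the tight junction proteins CLDN3 and CLDN4 by 5.24 and 3.97. Over the claudin family, counted after its values were seen, 2 of 24 genes were higher in TT and 5 in Nthy-ori 3-1, among them CLDN1 (at least 65.4-fold). Over the keratin family, also counted after its values were seen, 1 of 50 genes was higher in TT and 8 in Nthy-ori 3-1. Of the 50, 20 were above background on no array. KRT19 was higher in TT by 3.31. Those higher in Nthy-ori 3-1 included KRT80 (at least 308-fold), KRT7 (-2.39) and KRT18 (-1.18), and KRT8 did not pass (-0.49). Nthy-ori 3-1 thus had keratin signal on arrays where E-cadherin was not well above background.

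Mesenchymal and matrix genes were the reverse, with 27 of 37 members higher in Nthy-ori 3-1 and 1 higher in TT (median difference -3.79, or -3.35 with the bounds and -2.01 with the normexp background). VIM, the intermediate filament vimentin, read 17.32 and 17.35 in Nthy-ori 3-1 and 5.09 and 6.03 in TT, a difference of -11.78 ± 0.39 (SE). TGFBI, a matrix protein induced by TGF-beta, read 16.09 and 15.97 in Nthy-ori 3-1 and 1.82 and 1.83 in TT, at least 6211-fold apart. COL1A1, a chain of type I collagen, was at least 1379-fold higher in Nthy-ori 3-1, whereas its partner chain COL1A2 was not above background on any array. SPARC and CD44, a matrix protein and the hyaluronan receptor, had differences of -9.03 and -9.21, and FN1 and COL4A2 of -6.69 and -6.28. Of the transcription factors of epithelial to mesenchymal transition, SNAI1 (-2.94) was higher in Nthy-ori 3-1, with ZEB2, TWIST1 and TWIST2 there at least 19.8-fold, 12.7-fold and 56.2-fold higher. ZEB1 did not pass (0.25). SNAI2 (0.90) and CDH2, N-cadherin, met the p threshold below the minimum difference, and CDH2 read 13.38 and 13.35 in TT and 12.66 and 12.33 in Nthy-ori 3-1. S100A4, a calcium-binding protein often used as a fibroblast marker, was the single member higher in TT, with 17.43 and 17.37 in TT against a mean of 10.3 in Nthy-ori 3-1.

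Integrins were higher in Nthy-ori 3-1 for 9 of 20 members (45%) and in TT for 2 (10%). Over all genes 11.5% were higher in TT, and over expressed genes 19.5%. ITGA6, a laminin receptor chain, was at least 71.3-fold higher in Nthy-ori 3-1 and ITGB3, a vitronectin receptor chain, had a difference of -7.04. ITGA10 and ITGB6 were the 2 members higher in TT, at least 18.7-fold and 2.57-fold. The widely used chains ITGB1 and ITGAV differed by -0.24 and -0.01 and did not pass.

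YAP, TEAD factors and their outputs were higher in Nthy-ori 3-1 for 10 of 17 members and in TT for 0, with a median difference of -3.71. YAP1, the coactivator that the Hippo kinases keep out of the nucleus, read 11.74 and 11.41 in Nthy-ori 3-1 and 2.16 and 2.28 in TT, at least 283-fold apart (adjusted p = 0.00125). Its paralog WWTR1, also called TAZ, read 7.48 and 7.56 in TT and 7.67 and 7.51 in Nthy-ori 3-1 and did not pass. The DNA-binding partners differed: TEAD4 and TEAD3 had differences of -3.71 and -3.51, TEAD2 was at least 8.15-fold higher in Nthy-ori 3-1, and TEAD1 did not pass (-0.60). Well known outputs were above background on the Nthy-ori 3-1 arrays and on neither TT array. CCN1, a matricellular protein, read 14.91 and 15.35 in Nthy-ori 3-1 and 1.84 and 1.81 in TT, at least 3320-fold apart. CCN2 read 9.19 and 9.79 against 2.15 and 2.04, and ANKRD1 9.68 and 10.02 against 1.79 and 1.77, bounds of at least 66.7-fold and 85.6-fold. AJUBA and AMOTL2, regulators that are also outputs, had differences of -6.27 and -4.88.

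The start regions of CCN2 and ANKRD1 are shown because they hold copies of GGAATG, a core of TEAD motifs, within the same 300-base window (RefSeq, GRCh38.p14; CCN2 at chr6:131951323-131951622 and ANKRD1 at chr10:90921038-90921337, both on the minus strand and written in the direction of the gene). Capitals mark GGAATG, which was searched on both strands.
CCN2: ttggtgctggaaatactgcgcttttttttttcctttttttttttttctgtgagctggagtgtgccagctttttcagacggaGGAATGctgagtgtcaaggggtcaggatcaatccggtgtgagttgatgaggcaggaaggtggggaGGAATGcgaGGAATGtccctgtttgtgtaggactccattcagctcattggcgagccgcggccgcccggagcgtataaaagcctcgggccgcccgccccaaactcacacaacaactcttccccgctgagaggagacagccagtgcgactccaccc
ANKRD1: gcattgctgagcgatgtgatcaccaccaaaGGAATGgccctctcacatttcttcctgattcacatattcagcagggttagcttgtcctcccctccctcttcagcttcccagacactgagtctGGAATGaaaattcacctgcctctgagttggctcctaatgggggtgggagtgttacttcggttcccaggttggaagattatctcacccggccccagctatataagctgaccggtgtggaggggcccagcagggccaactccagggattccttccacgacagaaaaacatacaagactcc
CCN2 has 3 copies and ANKRD1 has 2, while the windows of AJUBA and AMOTL2 have 0. The letters occur in 11.8% of all 16028 promoters, in 11.2% of those of genes called higher in TT and in 11.7% of those of genes called higher in Nthy-ori 3-1, and their part in the line difference was not tested.

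Receptor tyrosine kinases were higher in Nthy-ori 3-1 for 15 of 37 members (40.5%) and in TT for 6 (16.2%, between the 11.5% of all genes and the 19.5% of expressed genes). Besides RET, KDR, the main VEGF receptor, was higher in TT, with 10.12 and 10.62 against 1.95 and 3.04 (at least 63.8-fold). PDGFRA was at least 4.02-fold higher in TT and KIT, INSR and DDR1 differed by 3.16, 2.53 and 2.28. EGFR read 9.37 and 9.41 in Nthy-ori 3-1 and 7.20 and 7.29 in TT, a difference of -2.15. AXL and MET had differences of -5.33 and -3.21 and ERBB2 of -3.26. PDGFRB was at least 74.5-fold and FGFR3 at least 50.8-fold higher in Nthy-ori 3-1. The 2 platelet-derived growth factor receptors thus lay in different lines.

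Among NF-kB cytokines and targets, 11 of 23 were higher in Nthy-ori 3-1 (47.8%) and 2 in TT (8.7%). The latter share stands beside 11.5% over all genes and 19.5% over expressed genes. IL11, a cytokine of the IL-6 family, read 11.35 and 11.10 in Nthy-ori 3-1 and 2.29 and 1.84 in TT, at least 222-fold apart. IL6 had a difference of -3.92, LIF of -4.85 and the adhesion molecule ICAM1 of -2.96. CCL2 and the inhibitor NFKBIA were the members higher in TT, by 3.42 and 1.02. On the treated arrays 7 members were called higher in Nthy-ori 3-1 and 1 in TT.

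Antigen presentation genes of MHC class I were higher in Nthy-ori 3-1 for 7 of 19 members (36.8%) and in TT for 2 (10.5%). All 19 were above background in a line, and of such genes 19.5% were higher in TT (11.5% over all genes). HLA-C and HLA-B had differences of -4.41 and -3.93 and HLA-E of -2.62, values that are uncertain because these genes are near copies of each other and the lines may carry different alleles under a probe. B2M, the shared light chain, did not pass (-0.78). The peptide transporter TAP2 and the immunoproteasome subunit PSMB9 had differences of -1.52 and -2.06, and the trimming enzyme ERAP2 was higher in TT by 2.75. Interferon-stimulated genes were higher in Nthy-ori 3-1 for 15 of 30 members and in TT for 0. MX1, which blocks RNA viruses, read 9.08 and 8.83 in Nthy-ori 3-1 and 1.84 and 1.85 in TT (at least 46.0-fold). IFIT3 and OASL were at least 41.2-fold and 33.2-fold higher, and IFITM3 and ISG15 had differences of -3.88 and -2.47. IRF9, which carries the interferon signal, did not pass, with a difference of -0.09.

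DNA replication genes were higher in Nthy-ori 3-1 for 15 of 32 members and in TT for 0, with a median difference of -1.06. GINS4 and GINS3 of the replicative helicase had -3.31 and -2.84, ORC1 -2.87, MCM2 -1.63 and the sliding clamp PCNA -1.08. Mitosis genes were higher in Nthy-ori 3-1 for 4 of 32, a share of 12.5% beside 10% over all genes and 18.5% over genes above background in at least 1 line, as all 32 were. MKI67, a proliferation marker, had a difference of -2.35 and AURKA of -2.11, with the Nthy-ori 3-1 arrays of AURKA at 12.26 and 13.25. With the authors' own normalization 23 replication and 10 mitosis genes were called higher in Nthy-ori 3-1, in a table where all genes lay lower in TT by a median of 0.31. In the list of cell cycle inhibitors and RB pathway genes 5 of 15 were higher in Nthy-ori 3-1 (33.3%) and 1 in TT (6.67%). The shares of expressed genes were 18.5% and 19.5%. The other 9 list members were not called, and the median difference of the list was -0.76. CDKN2C, the CDK4 and CDK6 inhibitor p18, read 11.31 and 11.39 in Nthy-ori 3-1 and 3.43 and 2.23 in TT, at least 242-fold apart. CDKN1C had a difference of -6.17 and CDKN2A, the p16 gene, of -4.53. CDK6 itself had a difference of -7.15, with 4.64 and 5.06 in TT. CDKN2D, the p19 gene, was higher in TT by 2.67.

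**Figure D3:**
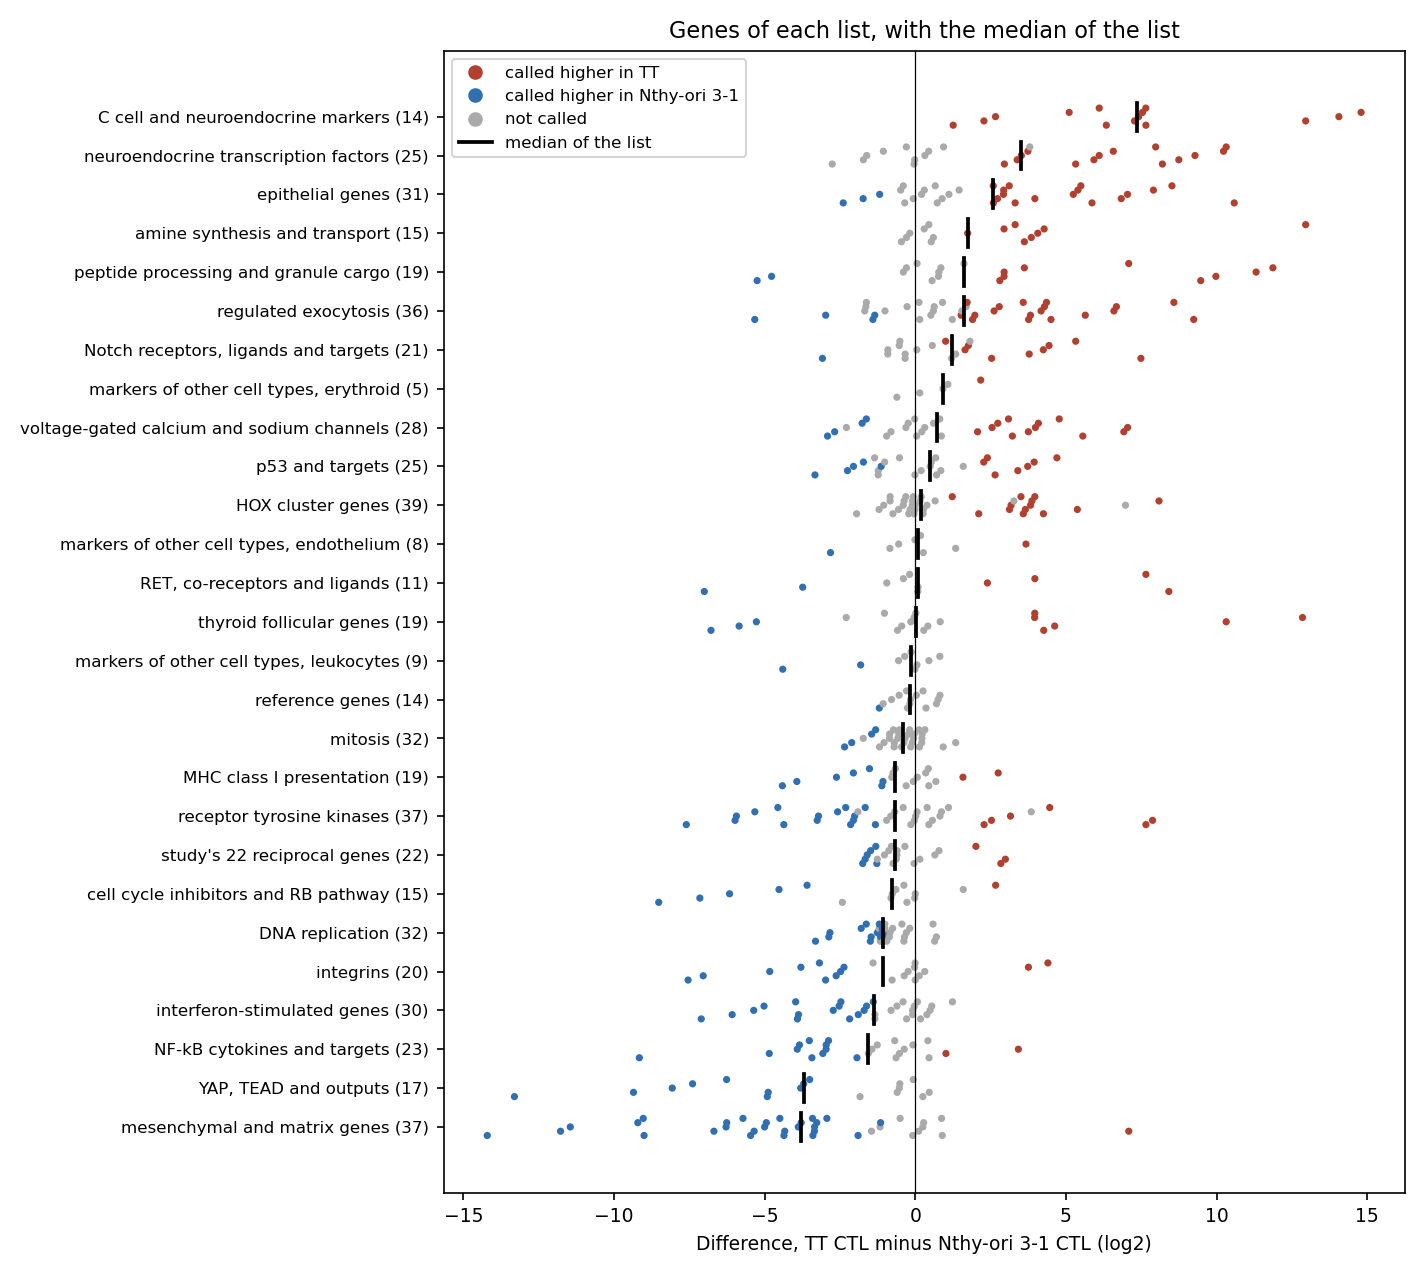
Difference between TT CTL and Nthy-ori 3-1 CTL (log2, horizontal axis) for each measured gene of the 27 lists, 1 point per gene with the number of genes in brackets and a bar at the median. The C cell and neuroendocrine markers have a median of 7.35 and the mesenchymal and matrix genes of -3.79, and the reference genes lie near 0.

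Of 25 genes of the p53 response, all above background in a line, 7 were higher in TT and 5 in Nthy-ori 3-1. These shares of 28% and 20% lie near the 19.5% and 18.5% over genes above background in at least 1 line. BTG2, an antiproliferative target, differed by 3.95 and TP53I3 by 3.73, while TNFRSF10B and FAS, death receptors, had -3.33 and -2.25. CDKN1A did not pass (1.59, adjusted p = 0.121). Notch genes were higher in TT for 9 of 21 (42.9%) and in Nthy-ori 3-1 for 1 (4.76%), beside the same 19.5% and 18.5%. With the authors' log2 values the counts were 7 and 3, and the median difference was 0.36 instead of 1.20. The ligand DLL1 was at least 45.9-fold higher in TT. DLL3, a ligand that acts within the same cell, read 13.64 and 13.69 in TT and 9.25 and 9.20 in Nthy-ori 3-1. The target HEY1 differed by 4.25 and the glycosyltransferase MFNG by 5.32. NOTCH2 was the member higher in Nthy-ori 3-1 (-3.08), and NOTCH1 did not pass (0.05).

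HOX cluster genes, which hold positional identity, differed by cluster. All 13 called of 39 measured genes (33.3%, beside 11.5% over all genes) were higher in TT and all lay in the HOXB and HOXC clusters. Of the 39 genes 18 were above background on both arrays of a line and 17 on no array. With the authors' log2 values 11 were called higher in TT and 1 in Nthy-ori 3-1. HOXB2 read 13.69 and 14.00 in TT and 5.60 and 5.91 in Nthy-ori 3-1, a difference of 8.09. HOXB5 was at least 35.7-fold higher, and HOXB4, HOXB6 and HOXB13 differed by 4.25, 3.87 and 3.83. In the HOXC cluster HOXC4, HOXC6 and HOXC9 differed by 3.65, 3.51 and 3.18. HOXB8 read 11.32 and 10.46 in TT but 1.79 and 6.04 in Nthy-ori 3-1, and its difference of 6.98 did not pass (adjusted p = 0.0724). HOXA9 and HOXA10 were above background in both lines and were not called (-0.84 and -0.37). No HOXD gene was well above background on both arrays of either line.

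Markers of cell types that the cultures should not hold were called for a few genes, at most 22.2% of a list in a direction. Of expressed genes 19.5% were called higher in TT and 18.5% in Nthy-ori 3-1 (11.5% and 10% of all genes). These counts are therefore not read as a result about the markers. Of 8 endothelial genes 1 was higher in TT (PECAM1, at least 2.79-fold) and 1 in Nthy-ori 3-1 (ROBO4, difference -2.82), and TIE1 and TEK were not above background. Of 9 leukocyte genes 2 were higher in Nthy-ori 3-1, the lysosomal CD68 (at least 17.7-fold) and CSF1R (-1.82). Of 5 erythroid genes 1 was higher in TT, and HBB was not above background. Among 14 reference genes ACTB was the member called, higher in Nthy-ori 3-1 (-1.20). GAPDH and PPIA had differences of -0.18 and -0.16, RPLP0 of 0.04, and none of these 3 passed.

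By size of difference among genes above background on all 4 arrays, the 12 most TT-higher genes beyond those described above were led by CTAG2, a cancer-testis antigen (10.19), the glutamate transporter SLC1A7 (9.57), C16orf89 (9.38), the prostate-associated transcript PART1 (8.59), VCX2 (8.08), TMSB15A (7.56) and the trefoil peptide TFF1 (7.52). On the Nthy-ori 3-1 side they were LGALS1, galectin-1 (-11.31), the membrane-binding annexin ANXA2 (-11.24), the lactate dehydrogenase subunit LDHB (-10.62), the phosphofructokinase PFKP (-9.89), the glutathione transferase GSTP1 (-9.76), COL18A1 (-9.62), the tetraspanin CD81 (-9.57), BASP1 (-9.24) and CDC42EP1 (-8.57). LDHB read 16.21 and 16.90 in Nthy-ori 3-1 and 5.98 and 5.90 in TT. GSTP1 read 17.30 and 17.00 against 7.58 and 7.20.

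Genes present in a single line, ranked by signal there, included the cancer-testis antigens PAGE2B, CTAG1A and PAGE2, at least 12455-fold, 9508-fold and 8654-fold higher in TT. NSG2, a neuronal endosome protein, was at least 2293-fold, the protease KLK11 at least 1652-fold and SELENBP1 at least 1201-fold higher in TT. In Nthy-ori 3-1 S100A10, which binds ANXA2, was at least 2209-fold, the TNF family ligand CD70 at least 2041-fold, the membrane protein MAL at least 1359-fold, P3H2, a collagen prolyl hydroxylase, at least 1133-fold, the adaptor TRIP6 at least 925-fold and MGST1 at least 861-fold higher. CTAG1A, CTAG2, PAGE2, PAGE2B and VCX2 belong to families of near-identical copies, and ANXA2P1 (at least 1699-fold higher in Nthy-ori 3-1, with an adjusted p of 0.0521 and 0.0503 without TT replicate 1 and 2) is a pseudogene of ANXA2, so the assignment of these signals to 1 copy is uncertain.

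The differences were spread unevenly over the chromosomes. Among 16519 genes above background in at least 1 line, 19.5% were called higher in TT and 18.5% in Nthy-ori 3-1. On chromosome 9 the shares were 8.42% and 35.6% of 665 genes, with a median difference of -0.73, and on chromosome 20 they were 11.7% and 32.2% of 479 genes (median -0.58). Chromosome 19 showed the opposite, with 25.3% and 11.1% of 1193 genes (median 0.40), as did chromosome 8 with 28.3% and 13.1% of 558 genes, chromosome 4 with 27.0% and 13.1% of 578 and chromosome X with 27.3% and 15.4% of 578. CDKN2A and GFRA4 lie on chromosomes 9 and 20, in different directions. No test was made by chromosome, and copy number was not measured.

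**Figure D4:**
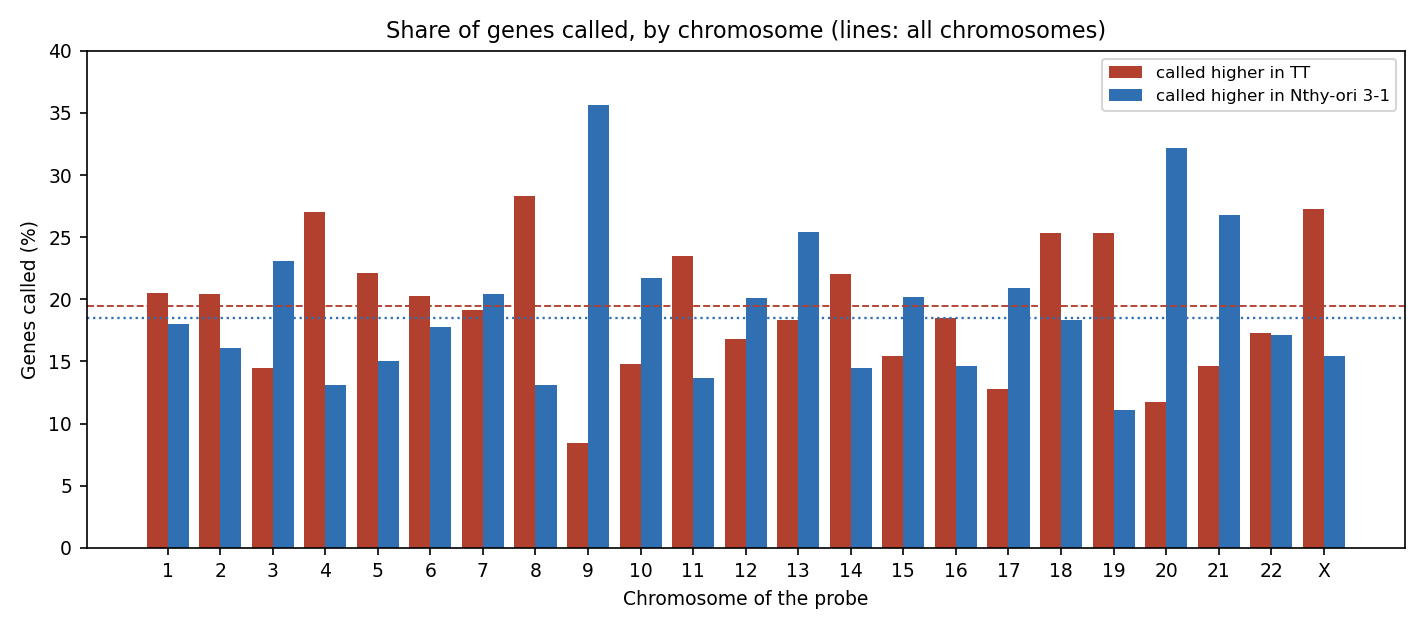
Share of genes called higher in TT and in Nthy-ori 3-1 (percent of the genes above background in at least 1 line, vertical axis) for each chromosome; the dashed and dotted lines give 19.5% and 18.5% over all chromosomes. Chromosomes 9 and 20 have the widest gap toward Nthy-ori 3-1, with 35.6% and 32.2%.

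The same lines were compared on the 4 treated arrays, which lie on the same slides as the controls and carry other RNA samples. There 3855 genes were higher in TT (10.6%) and 3272 in Nthy-ori 3-1 (8.99%), and 0 in either direction without TT AntagomiR-375 replicate 1 or replicate 2 (6808 and 6832 genes at an unadjusted p under 0.05 in limma). Of the genes higher in TT in the controls 75.2% were also called higher in TT here, and these were 81.4% of the treated calls. For Nthy-ori 3-1 the shares were 69.9% and 78.1%. Across genes above background on all 4 control arrays, the differences of both comparisons correlated with r = 0.913, a description across genes that are not independent. CALCA, CHGA and RET differed by 12.31, 11.92 and 7.63, and VIM by -11.93. Opposite calls were made for 9 genes: ADAMTS6, CHSY1, EIF2S1, MBD2, MSANTD3-TMEFF1, PODXL and TTC7B, higher in Nthy-ori 3-1 in the controls, and MPZL3 and PLSCR4, higher in TT in the controls. Whether the line difference changed between control and treated arrays was tested in a fit of all 8 arrays, and the answer depended on the slide. Without a slide term limma called 0 genes (2883 at an unadjusted p under 0.05, smallest adjusted p 0.0689). With the slide, which holds a control array and its treated partner, as a random block (consensus correlation 0.5), 843 genes passed, all 9 above among them, 520 toward TT and 323 toward Nthy-ori 3-1. In that fit the difference of SYP, a vesicle protein, changed by -3.58 from 7.60, and that of YAP1 by 1.99 from -9.43. Neither changed its direction. The sizes of these 2 changes are not exact, since SYP in Nthy-ori 3-1 and YAP1 in TT were not well above background in the controls.

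The 22 genes that the study selected on these 8 arrays, for falling with pre-miR-375 and rising with antagomiR-375, were all above background in at least 1 line in the controls. There 6 were higher in Nthy-ori 3-1 (27.3%, beside 18.5% of expressed genes), 3 in TT (13.6%, beside 19.5%) and 13 were not called, with a median difference of -0.69. SEC23A, a coat protein of vesicles that leave the endoplasmic reticulum, read 9.57 and 9.71 in TT and 11.08 and 11.39 in Nthy-ori 3-1, a difference of -1.60 ± 0.18 (SE; adjusted p = 0.015, and 0.113 and 0.101 without TT replicate 1 and 2). EIF2S1 had -1.75, DRAM1 -1.67, WBP1L -1.48, ASPH -1.31 and MRPL19 -1.28. XPR1, PRKCH and MATN2 were higher in TT, by 2.99, 2.84 and 2.01. KIAA1191 (-0.88) met the p threshold below the minimum difference, and no longer met it in 6 of 14 alternatives, among them each left-out array (adjusted p = 0.0573 to 0.142). MAT2B (-0.74) did not pass. The MAT2B difference was -1.43 without Nthy-ori 3-1 replicate 1 and -0.04 without replicate 2. On the treated arrays 12 of the 22 were higher in TT and 0 in Nthy-ori 3-1, with a median of 2.18. The study chose the genes on these arrays for a change in that direction between control and treated cells, so the shift is no separate result. The control arrays were part of that choice, so the shares in the controls are not independent of it either. SEC23A then read 10.22 and 10.27 in TT and 9.51 and 10.06 in Nthy-ori 3-1 and did not pass (0.46).

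**Figure D5:**
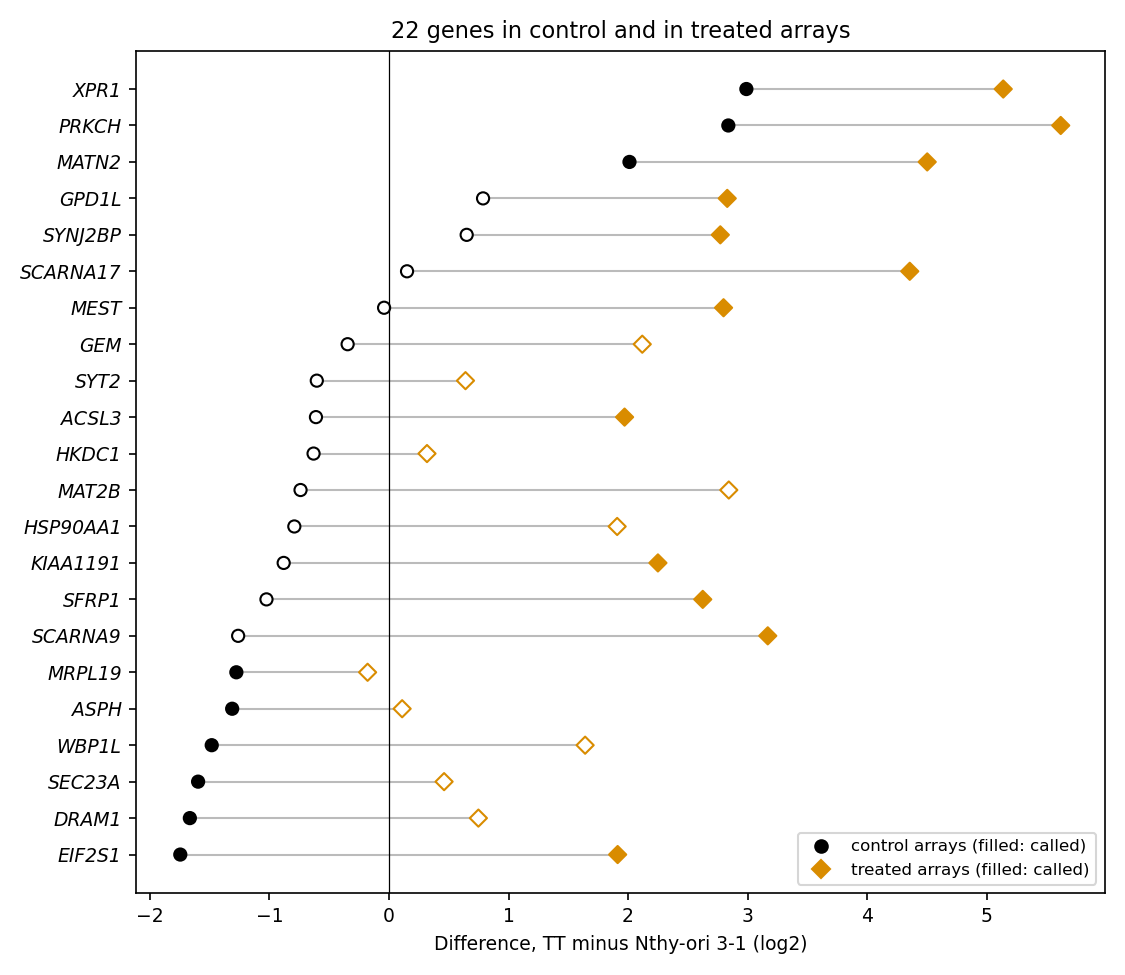
Difference between TT and Nthy-ori 3-1 (log2, horizontal axis) for the study's 22 genes on the control arrays (circles) and on the treated arrays (diamonds), filled where called. In the controls 6 genes were called below 0 and 3 above it, and on the treated arrays 12 were called above 0.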

How the data were processed

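RNA of TT and Nthy-ori 3-1 cells was labelled with Cy3 and hybridized to 1-colour Agilent arrays, 2 per group. The authors deposited the scanner files, which hold for each spot a processed intensity with the background subtracted and no scaling between arrays (Agilent software version 10.10.1.1, probes placed on hg19). They also deposited a table of log2 values, which is used as an alternative and whose values are the same set within a line and not across lines. How it was made beyond limma and quantile normalization is not given in the sources used here. Here log2 of the processed intensity of the 4 control arrays was quantile normalized in limma 3.58.1 (R 4.3.3), after control spots and spots flagged as outliers were left out and spots of 902 repeated probes averaged. The lines were compared with lmFit and eBayes, without a block, over 50599 probes, and limma estimated a prior of 1.28 degrees of freedom. The 4 treated arrays were fitted in the same way. The probe with the highest mean over the control arrays stood for a gene, and 33 called genes had another probe called the other way. Of 36390 gene names, 18138 matched a current RefSeq symbol (GRCh38.p14), 2920 an accession and 296 a synonym, and 15036 matched none.

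The 27 lists hold 599 genes, of which 595 were measured, and were described by counts and medians with no test. Genes were named as list members, as the 12 with the largest difference in each direction above background on all 4 arrays, and as the 10 with the highest signal in each line among those above background in that line alone. Members and lists were chosen with earlier results of these data known. The steps were tested on simulated data. Alternatives were other background corrections and normalizations, all 8 arrays, the slide as a random block, a replicate block, other filters and leaving out each array. The change of the line difference between control and treated arrays was tested after the data were seen, in the 8-array fits with and without the slide. Same-numbered arrays of the lines deviated with r = 0.193 over 2 pairs, the arrays come from different lines, and the numbers were therefore not read as pairs. Some list members are counted but not reported here by name.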

Additional observations from a re-analysis of the deposited data

Results flagged for a closer look

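The difference between the lines was itself different between control and treated arrays for 843 genes when all 8 arrays were fitted in limma with the slide as a random block, and for 0 genes without the slide (2883 at an unadjusted p under 0.05). The values below are the change of the log2 difference, treated minus control, all at an adjusted p of at most 0.05 with the slide. For genes not well above background in a line of the controls, the change is a fitted value without an exact size. Among them are SYP in Nthy-ori 3-1 and YAP1, CCN2 and ANKRD1 in TT. The agents given to the treated cells act in opposite directions on miR-375 in the lines. The 9 genes called in opposite directions on control and treated arrays were ADAMTS6 (4.21), CHSY1 (2.83), EIF2S1 (3.66), MBD2 (2.06), MPZL3 (-2.74), MSANTD3-TMEFF1 (2.97), PLSCR4 (-3.14), PODXL (3.28) and TTC7B (2.16). Of the study's 22 genes, which were chosen on these arrays for such a change, 19 passed, EIF2S1 and, by size, SCARNA9 (4.44), SCARNA17 (4.23), SFRP1 (3.66), MAT2B (3.59), KIAA1191 (3.14), WBP1L (3.13), MEST (2.86), PRKCH (2.82), HSP90AA1 (2.69), ACSL3 (2.59), MATN2 (2.54), DRAM1 (2.41), XPR1 (2.21), SYNJ2BP (2.15), GPD1L (2.07), SEC23A (2.04), ASPH (1.41) and MRPL19 (1.09). Another 35 genes of the lists passed, of which 33 are given. Those that moved toward TT were AJUBA (1.17), ANKRD1 (1.43), BIRC5 (0.97), CCN2 (1.85), CSF2 (3.04), CXCL2 (3.51), GDNF (2.66), HOXB6 (1.56), ICAM1 (1.03), IL6 (1.70), ITGB8 (2.07), KRT18 (1.32), KRT8 (2.15), PSMB10 (1.37), RAB3B (1.03), RBPJ (2.76), SCN9A (1.49), SLC18A1 (1.12), TYMS (1.31), UHRF1 (1.37), VWF (0.98), WWTR1 (1.43), YAP1 (1.99) and YWHAZ (3.11). Those that moved toward Nthy-ori 3-1 were BTG2 (-1.66), CCL2 (-2.50), CCNE2 (-1.20), CDKN2D (-1.39), CDS1 (-2.04), CPLX1 (-2.17), RAB3C (-1.49), SYP (-3.58) and TAP1 (-1.36).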

How the results depend on the processing

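In the 14 refits of the control comparison, 0 of the 7831 called genes were called the other way. The 4175 genes higher in TT and 3656 in Nthy-ori 3-1 moved most when an array was left out, from 728 to 3983 and from 473 to 3264, lowest without TT CTL replicate 1. A lone TT array is then assumed to vary like the Nthy-ori 3-1 arrays. The authors' log2 values gave 2640 genes higher in TT, a minimum difference of 2 gave 2753 and 1944, and a mean log2 signal of at least 6 gave 2648 higher in TT. A replicate block gave 2931 and 2247, and since the numbers do not pair the samples this is no measure of a weaker effect. On the treated arrays the counts ran from 0 to 4148 and from 0 to 3305 with an array left out, and the 0 came without either TT AntagomiR-375 array. For 47 genes (CALCA, CHGA, RET, SEC23A, MAT2B, KIAA1191 and those named by size of difference or by signal in a single line) all 658 alternative values kept their direction and 14 no longer passed, 12 of them with an array left out, 1 under the replicate block and KIAA1191 under 75th percentile scaling. The other list genes were recounted by list only. The median of the mesenchymal genes, -3.79, was -2.57 with the authors' log2 values, and that of the epithelial genes, 2.59, was 1.88 with normexp and 1.69 with those values. The medians of the RET, follicular and HOX lists, near 0 here, were -0.26, -0.22 and -0.29 with the authors' log2 values. Signals not well above background limit ratios to bounds. The cause of these changes was not tested.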

Other observations

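Some gene families that the report does not group are described here. They were chosen after their values were seen, so the counts are descriptions, to be read beside the 11.5% of all genes called higher in TT and the 10% called higher in Nthy-ori 3-1. Of 41 measured cancer-testis antigens of the X chromosome, genes normally silent outside the germ line, 26 were called higher in TT and 1 in Nthy-ori 3-1, with a median difference of 3.56. MAGEA1 read 12.21 and 12.34 in TT and 2.54 and 2.81 in Nthy-ori 3-1 (at least 239-fold), and MAGEC1 was at least 167-fold higher. XAGE1A was above background in both lines, with 17.30 and 17.35 against 13.71 and 13.50. SPANXN5 was the member higher in Nthy-ori 3-1. Near-identical copies make the assignment within these families uncertain.

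Annexins, calcium-dependent membrane binders, were higher in Nthy-ori 3-1 for 8 of 11 members and in TT for 2. ANXA1 was at least 809-fold and ANXA3 at least 204-fold higher in Nthy-ori 3-1, and ANXA9 at least 18.7-fold higher in TT. Caveolins and cavins, which shape membrane pits, were higher in Nthy-ori 3-1 for 6 of 7 members, with CAV1 at 11.90 and 12.42 against 4.01 and 3.85 in TT. Of 15 S100A genes 5 were higher in Nthy-ori 3-1 (among them S100A10 and S100A16) and 2 in TT (S100A4 and S100A14), the latter a share near that of all genes. The trefoil peptides TFF1 and TFF3 were higher in TT and the third measured member was not called. Of 19 measured subunits of the GABA-A receptor, 5 were higher in TT, among them GABRR1 (at least 110-fold), and GABRE was higher in Nthy-ori 3-1 (-5.19).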
